A study of Mus musculus with 31 samples.

Results

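Ribosome footprints of S6K1-deficient cortex were compared with those of wild-type cortex. S6K1 is the kinase encoded by Rps6kb1. All libraries that the labels give as ribosome profiling of these genotypes were taken, which made 7 of the 15 footprint libraries and of the 31 libraries in all: 3 from Rps6kb1-deficient mice (S6K1) and 4 from wild-type mice (WT). The other 8 footprint libraries came from mice lacking Fmr1 (FXS) or both genes (DKO), and 16 libraries held polyadenylated mRNA. Every library came from dissected cortex of mice at postnatal day 29 to 34. The labels give no strain, sex or deleted exons, and no link between libraries and animals, so the p-values below measure the spread between libraries. S6K1 replicate 1 was in batch 1, replicate 2 in batch 2 and replicate 3 in batch 3. WT replicate 1 was in batch 2, replicate 2 in batch 3 and replicates 3 and 4 in batch 4. Batch 1 thus held no WT library and batch 4 no S6K1 library, and only batches 2 and 3 held both genotypes, with 1 library of each.

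Ribosome profiling sequences the stretches of mRNA that ribosomes shield from nuclease, so that a gene's footprint count follows both how much of its mRNA is present and how many ribosomes are on it. S6K1 is switched on by the kinase complex mTORC1, which responds to growth factors and amino acids. It phosphorylates the ribosomal protein S6 and several factors of translation initiation and elongation. mTORC1 also governs translation of the TOP mRNAs, which code for ribosomal proteins and elongation factors and begin with a C and a run of pyrimidines. In a lysate of whole cortex, fewer cells of a type and less footprint RNA per cell cannot be told apart.

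The start of 4 ribosomal protein mRNAs is shown because these transcripts are the class through which mTORC1 acts on the protein synthesis machinery. They are the 4 with the smallest footprint p among those whose annotated transcript start (RefSeq, GRCm38.p6) is a C followed by at least 4 pyrimidines. Each stretch runs 5′ to 3′ from 10 bases before that start to 20 bases from it, and capitals mark the pyrimidine run. They lie at chr2:39005112-39005141 on the minus strand, chr19:6057937-6057966 on the plus strand, chr4:86857348-86857377 on the minus strand and chr17:33955646-33955675 on the minus strand.
Rpl35: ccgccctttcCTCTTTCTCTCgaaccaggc
Fau: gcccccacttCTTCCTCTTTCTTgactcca
Rps6: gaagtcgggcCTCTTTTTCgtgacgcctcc
Rps18: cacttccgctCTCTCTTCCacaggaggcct
Such a start was found in 14 of the 57 ribosomal protein genes that had an annotated start, which is 24.6%, and in 2.98% of the 10542 tested genes with one. The pattern was searched at the annotated start base only and on the transcript's strand, so a start annotated a few bases away was missed.

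Depth was 16633416 to 24232086 counts in the S6K1 libraries and 19812525 to 34853751 in the WT libraries, and 13953 of 20436 genes passed the filter on low counts. Genes that mark other brain regions differed between libraries of the same genotype. The summed level of 12 olfactory bulb markers was 10.6 to 54.7 CPM (counts scaled to a common library size) in the WT libraries, and 19, 186 and 90.3 CPM in S6K1 replicates 1, 2 and 3. Up to 2 of these 12 genes had no count in a library. For Eomes, a transcription factor of bulb projection neurons, WT libraries had 0.354, 0.339, 5.18 and 3.22 CPM and S6K1 libraries had 1.35, 17.6 and 9.42 CPM. The 12 striatal markers summed to 210 to 930 CPM in WT and 278 to 869 CPM in S6K1, and the 8 hippocampal markers to 36.3 to 87.6 CPM and 33.8 to 64.1 CPM. Slc17a7, the vesicular glutamate transporter of cortical excitatory neurons, was at 500 to 717 CPM in WT and 537 to 595 CPM in S6K1. The olfactory bulb list was put together after the genes called in one alternative fit had been seen. The part of these markers in the results below was not tested beyond the values given with their level as a covariate.

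**Figure D1:**
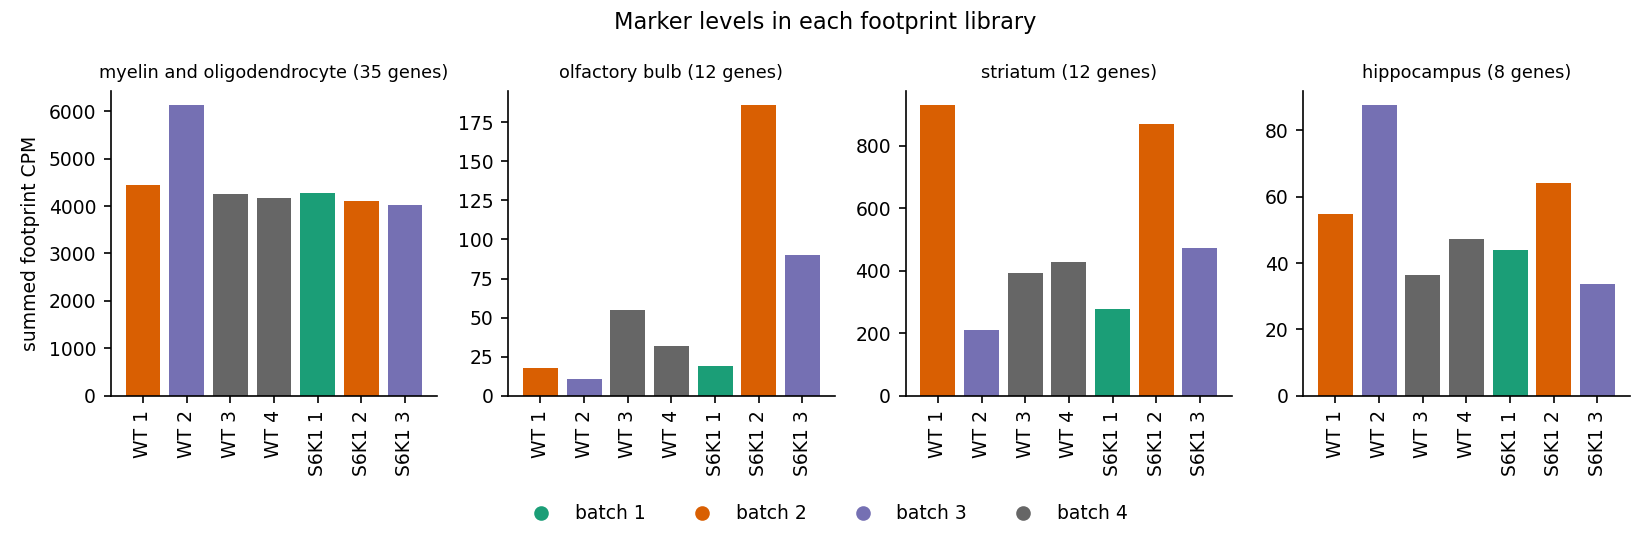
Summed footprint CPM (vertical axis) of 4 marker lists in each WT and S6K1 library (bars, coloured by batch). The olfactory bulb sum reaches 186 CPM in S6K1 replicate 2, and the myelin sum is highest in WT replicate 2.

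Rps6kb1 footprints fell in the S6K1 libraries. Rps6kb1 (gene ID 72508, chr11:86498869-86544885) had 31.7, 27.7, 30 and 26.1 CPM in the WT libraries and 12.8, 7.62 and 10.1 CPM in the S6K1 libraries. Every S6K1 library lay below every WT library. Footprints were not absent: the S6K1 libraries held 646 counts and the WT libraries 2946, a depth-scaled ratio of 0.358 with a 95% interval of 0.328 to 0.389 for counting error only. The labels do not say which part of the gene was deleted. The log2 fold change was -1.63 (SE 0.14, n = 3 and 4; edgeR quasi-likelihood test over all 15 footprint libraries with batch and genotype, Benjamini-Hochberg adjusted p = 6.85e-05). Without batch in the model it was -1.5 (adjusted p = 0.000605). Within batch 2 the log2 ratio was -1.99 and within batch 3 it was -1.41. In the Fmr1-deficient background, where DKO was compared with FXS, it was -1.63 (adjusted p = 2.68e-05). The difference between both backgrounds was 0.01, with a 95% interval of -0.35 to 0.36.

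Rps6kb1 was the only gene of 13953 to pass an adjusted p of 0.05 with batch in the model, a share of 0.00717%, and again the only one without batch. At an unadjusted p under 0.05, 589 genes were higher in S6K1 (4.22%) and 631 were lower (4.52%), a total of 8.74%. Without batch these counts were 495 and 649. The smallest adjusted p of any other gene was 0.151. limma voom also called Rps6kb1 alone, whereas the DESeq2 Wald test with the same model called 37 genes (0.265%). A fit of the 7 S6K1 and WT libraries alone, with batch, called 22 genes (0.162%). Of these, 8 were in the olfactory bulb list, which holds 10 of the 13953 tested genes. That list was put together after the calls of an alternative fit had been seen, so this count is not independent of it. Without batch the fit of the 7 libraries called 0 genes, with 673 higher and 762 lower at an unadjusted p under 0.05. DESeq2 and the fit of these 7 libraries shared 5 genes: Rps6kb1, Gng4, Meis2, Ptpro and Thbs4. With the olfactory bulb marker level as a covariate the log2 fold change went from 1.38 to 0.75 for Gng4, from 0.805 to 0.265 for Meis2 and from 0.88 to 0.30 for Ptpro, and from -1.495 to -1.86 for Thbs4. Leaving out WT replicate 1 gave 3 genes, Rps6kb1, Opalin and Adamtsl4. With batch 1 and batch 4 left out, Rps6kb1 alone was called at a log2 fold change of -1.75 (adjusted p = 0.0145).

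Rps6kb2, the gene of the related kinase S6K2, did not pass the test. It had 5.05, 4.25, 5.18 and 4.74 CPM in the WT libraries and 3.34, 3.15 and 3.74 CPM in the S6K1 libraries. All 3 S6K1 libraries lay below the WT libraries, as did 6.41% of tested genes, while 3.49% had all S6K1 libraries above. The log2 fold change was -0.34 (adjusted p = 0.621, SE 0.18), with a 95% interval of -0.72 to 0.03. Fmr1, the gene lacking in FXS and DKO mice, was at 105 to 138 CPM in WT and 104 to 159 CPM in S6K1, while FXS libraries had 7.03 to 8.67 CPM and DKO libraries 8.03 to 12.8 CPM.

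Beyond Rps6kb1, the genes with the smallest p did not pass the adjusted edgeR test in the model of all footprint libraries. The leading genes are the 12 of smallest edgeR p in each direction. DESeq2 with the same model called 21 of these 24, Rps6kb1 included, so whether they pass depends on the test. Their values are given as a description, and adjusted p-values below are from edgeR unless another test is named. Utp18, a component of the complex that matures the small ribosomal subunit's RNA, had 39.5, 43.3, 35.4 and 35.8 CPM in WT and 62.3, 56.7 and 58.0 CPM in S6K1. The groups did not overlap, and the log2 fold change was 0.53 (adjusted p = 0.151, SE 0.09). It was 0.62 without batch, 0.52 within batch 2 and 0.42 within batch 3. In the Fmr1-deficient background Utp18 rose: FXS libraries had 36.5 to 45.5 CPM, DKO libraries 67.2 to 71.5 CPM, and the log2 fold change was 0.72 (adjusted p = 0.002, SE 0.08). Utp18 and Rps6kb1 were the 2 genes called in that comparison (0.0143%), which shares no library with S6K1 against WT but shares the batch terms of the fit.

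S100a10, the binding partner of annexin A2, had 24.4 to 35.7 CPM in WT and 39.7, 36.5 and 48.7 CPM in S6K1, with a log2 fold change of 0.64 (adjusted p = 0.151, SE 0.12). Its value in DKO against FXS had the opposite sign, -0.31, and the difference between backgrounds was -0.95 (unadjusted p = 1.6e-05, adjusted p = 0.224). Over all genes, edgeR called no difference between backgrounds, with 428 genes at an unadjusted p under 0.05, limma voom called none, and DESeq2 called 5. Tiam2, an activator of the small GTPase Rac, had 113 to 127 CPM in WT and 134, 142 and 158 CPM in S6K1. Its log2 fold change was 0.38 (adjusted p = 0.261, SE 0.09), and 0.41 in DKO against FXS (adjusted p = 0.574). For both genes all S6K1 libraries lay above all WT libraries. Ndst4, an enzyme of heparan sulfate synthesis, did not overlap either, with 3.72 to 6.92 CPM in WT and 12.8, 13.6 and 7.72 CPM in S6K1. With the olfactory bulb marker level as a covariate its log2 fold change went from 0.93 to 0.42.

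In 7 of the 12 leading higher genes S6K1 replicate 1, the library of batch 1, lay within or below the WT range. Gng4, a G protein gamma subunit, had 6.55 to 11.6 CPM in WT and 7.29, 23.1 and 15.4 CPM in S6K1. Ankrd6, a regulator of Wnt signalling, had 8.69 to 13.4 CPM in WT and 6.18, 16.4 and 20.3 CPM in S6K1. For both genes only S6K1 replicates 2 and 3 lay above the WT range. Batch 1 held no WT library, so the place of replicate 1 against WT mixes batch with genotype. Without batch the log2 fold change went from 1.38 to 0.77 for Gng4 and from 0.70 to 0.25 for Ankrd6. S6K1 replicate 1 also lay in the WT range, and the other S6K1 libraries above it, for Acin1, Hist1h4i, Ablim3, Pdlim3 and Creld2, with log2 fold changes of 0.52 to 1.56 with batch and 0.33 to 0.93 without. Hist1h4i is 1 of several nearly identical histone H4 genes, among which counts may be split. Slc6a3, the dopamine transporter, rested on 33 counts in S6K1 and 9 in WT, a ratio of 5.98 with an interval of 2.8 to 14.2 for counting error only. It is itself 1 of the olfactory bulb markers, and its log2 fold change went from 3.11 to 2.09 with their level as a covariate.

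Among the leading lower genes, Ovca2, a serine hydrolase gene, had 7.68, 7.41, 6.38 and 7.82 CPM in WT and 3.9, 3.39 and 2.99 CPM in S6K1. The groups did not overlap, and the log2 fold change was -1.13 (adjusted p = 0.151, SE 0.20), with -0.73 in DKO against FXS. Ovca2 overlaps Dph1 over 1166 bases of the annotation, Cnp overlaps Dnajc7 over 9058 and Rps6kb1 overlaps Rnft1 over 139. Acin1 and Tiam2 overlap other genes as well. Reads in such stretches could be counted for either gene. Adamtsl4, a protein of the extracellular matrix, had 1.95 to 4.93 CPM in WT and 1.02, 1.55 and 1.41 CPM in S6K1, and Fbxo32, a subunit of a ubiquitin ligase, had 18 to 21.5 CPM and 17.8, 12.1 and 13.5 CPM. These also did not overlap, at log2 fold changes of -1.51 and -0.60. In Bche, Pde8a, Trim59, Gjc3, Myo1d, Opalin and Lactb2 the groups overlapped, with log2 fold changes of -1.44 to -0.53. Lactb2, a mitochondrial ribonuclease, was highest of all 7 libraries in S6K1 replicate 1, at 31.9 CPM, and below the WT range in the other 2, at 15.5 and 15.1 CPM. Of the 24 leading genes, Rps6kb1 included, 22 had the same sign in DKO against FXS, compared with 65.5% of all tested genes, and 14 of these had an unadjusted p under 0.05 there, where 5.3% of all genes had that p and the same sign. Both comparisons share the batch terms and the estimate of spread of the fit from which these genes were chosen. The counts are therefore not an independent replication.

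**Figure D2:**
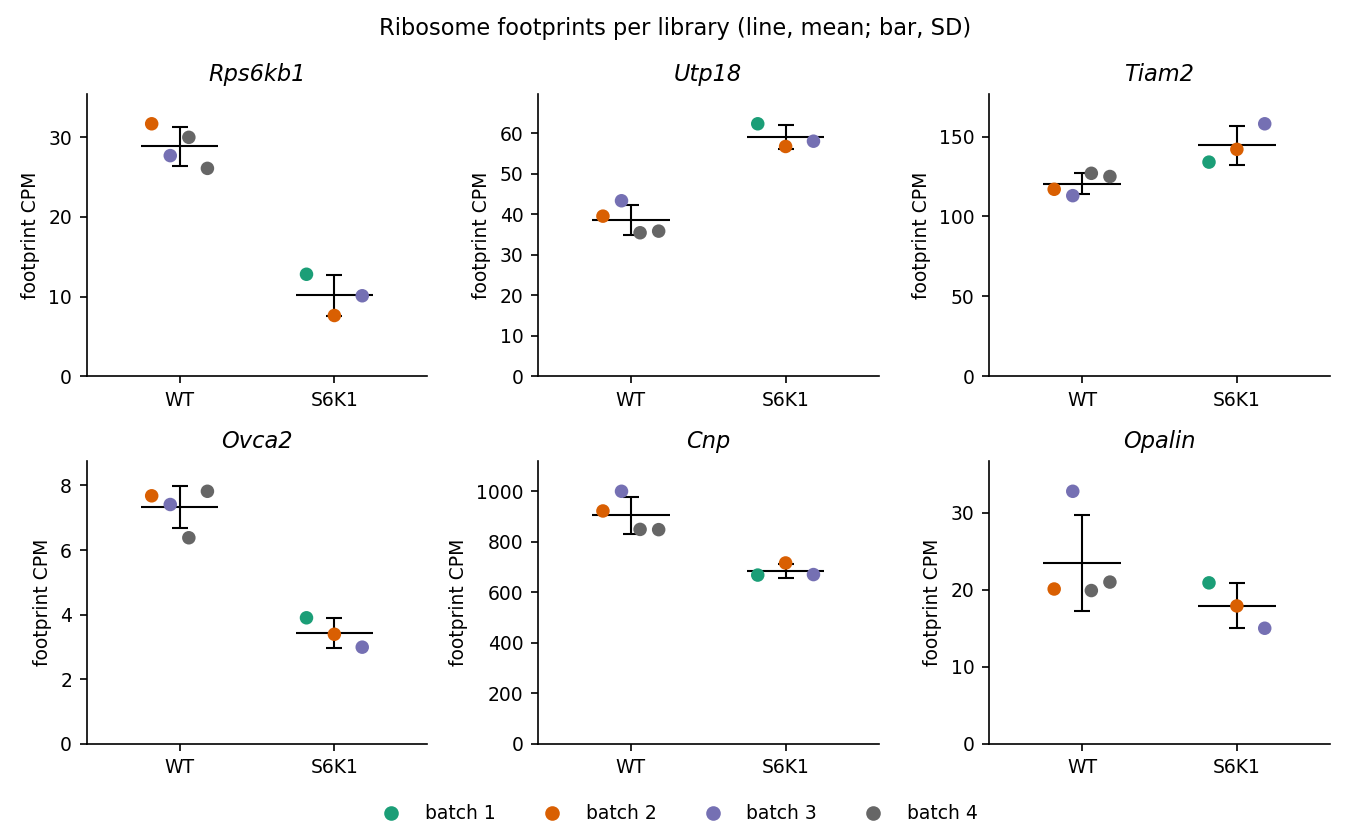
Footprint CPM (vertical axis) of 6 genes in WT and S6K1 libraries, with points coloured by batch, lines for means and bars for SD. Rps6kb1, Ovca2 and Cnp lie lower and Utp18 and Tiam2 higher in every S6K1 library than in any WT library, while Opalin overlaps at 20.9 CPM in S6K1 replicate 1.

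Myelin and oligodendrocyte genes had the lowest median of the lists tied to a cell type of the cortex. Oligodendrocytes wrap axons in myelin, and Cnp, Mbp, Mog and Mag code for proteins of the sheath. All 35 tested members had a negative log2 fold change, with a median of -0.47 against -0.02 over all tested genes, and 24 of 35 had an unadjusted p under 0.05 in that direction, where 4.52% of all genes did. None passed the adjusted edgeR test. The DESeq2 Wald test with the same model called 3 members: Cnp (adjusted p = 0.000792), Opalin (adjusted p = 0.00764) and Gjc3 (adjusted p = 0.0108). Cnp, an enzyme of the myelin sheath, had 922, 1000, 849 and 848 CPM in WT and 668, 716 and 670 CPM in S6K1. Its groups did not overlap, and its log2 fold change was -0.47 (adjusted p = 0.151, SE 0.08). Mag, an adhesion protein of the myelin sheath, had 218, 401, 220 and 202 CPM in WT and 180, 238 and 198 CPM in S6K1. S6K1 replicate 2 lay within the WT range, and the log2 fold change was -0.50 with batch (adjusted p = 0.625) and -0.34 without (adjusted p = 0.587).

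Other myelin proteins differed in whether the groups overlapped. Mbp had 371 to 473 CPM in WT and 234, 363 and 355 CPM in S6K1, without overlap. Mog had 37.2 to 69.5 CPM in WT and 57.5, 46.9 and 44.2 CPM in S6K1, with a log2 fold change of -0.46 with batch and 0.02 without. Gjc3, a connexin of oligodendrocytes, had 9.28 to 14 CPM and 12.2, 7.32 and 8.43 CPM. In all, 13 of 35 members lay below the WT range in every S6K1 library, where 6.41% of all genes did, and the other members overlapped. The mean log2 level of the list (CPM plus 0.5) was 5.45, 5.93, 5.46 and 5.43 in the WT libraries. It was 5.09, 5.36 and 5.23 in the S6K1 libraries, without overlap. The summed CPM, which follows the most abundant members, was 4160 to 6130 in WT and 4030 to 4280 in S6K1, and overlapped.

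The size of the myelin difference depended on the libraries in the model. WT replicate 2 had the highest level. Without it 14 of 35 members were lower at an unadjusted p under 0.05, where 587 of 13912 tested genes were, and the median was -0.30. Within batch 3, which holds that library, the median log2 ratio was -0.70 with all 35 members lower, and within batch 2 it was -0.12 with 21 lower. The 8 hippocampal markers were highest in the same library: their median was -1.04 with all 8 below zero, -0.40 without WT replicate 2, -1.55 within batch 3 and 0.22 within batch 2. Their part in the myelin values was not tested. Without batch in the model the myelin median was -0.39, with 31 of 35 lower and 14 at an unadjusted p under 0.05. Over all 13953 genes, 649 were lower at that p in the same fit. With the olfactory bulb marker level as a covariate the myelin median was -0.53 and 22 members passed that p, where 346 of all genes were lower at it. In DKO against FXS the median was -0.15, with 33 of 35 lower and 3 at an unadjusted p under 0.05, where 3.43% of all genes were lower. FXS libraries had mean log2 levels of 4.83 to 5.32 and DKO libraries of 4.81 to 4.97, all below the WT libraries.

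The mRNA of these genes did not show the same direction. Over the 4 S6K1 and 4 WT mRNA libraries the median of the 35 members was 0.06, with 9 below zero. Translational efficiency, the footprint change less the mRNA change in 1 model, had a median of -0.52, with all 35 members below zero and 20 at an unadjusted p under 0.05, where 4.34% of all genes did. Cnp was the single member called: its mRNA was at 326 to 390 CPM in WT and 347 to 429 CPM in S6K1, and its translational efficiency fell, with a log2 fold change of -0.63 (adjusted p = 0.0352, SE 0.11). The fits share the footprint libraries, so the footprint and translational efficiency values are not independent. Without batch no gene was called for translational efficiency by edgeR, with 411 genes higher and 637 lower at an unadjusted p under 0.05. The footprint and mRNA libraries are in different batches and the labels do not pair them, so the marker levels above differ between the assays as well.

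**Figure D3:**
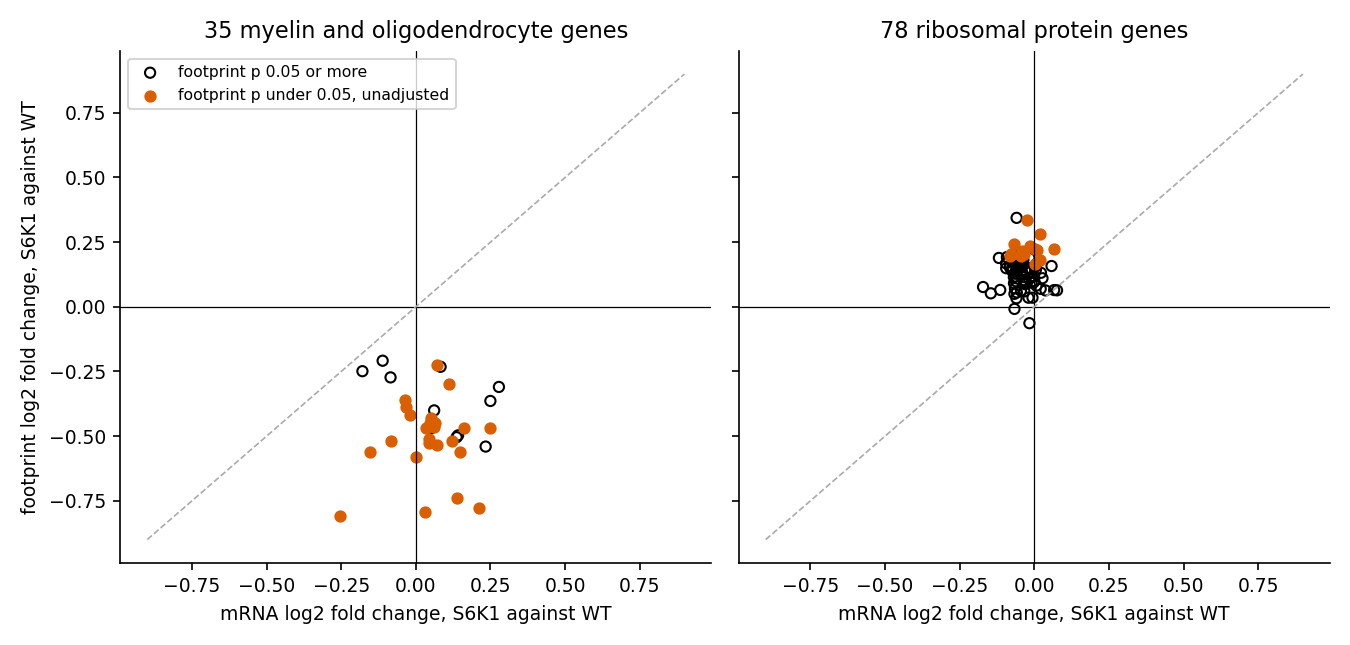
Log2 fold change of footprints (vertical axis) against that of mRNA (horizontal axis), S6K1 against WT, for 35 myelin and oligodendrocyte genes and 78 ribosomal protein genes, with filled points for an unadjusted footprint p under 0.05 and equal change on the dashed line. The myelin genes all lie below zero on the footprint axis, and 76 of the 78 ribosomal protein genes lie above it.

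Ribosomal protein genes, the largest group of TOP mRNAs, had a small positive median. Of 78 tested members 76 were above zero, with a median log2 fold change of 0.14, and 14 had an unadjusted p under 0.05 in that direction, where 4.22% of all genes did. None passed the adjusted test. In 3 of the 78 all S6K1 libraries lay above all WT libraries, a share near the 3.49% of all genes that did. Rpl36a, a protein of the large subunit, was among these 3. It had 36.5 to 41.8 CPM in WT and 47.6, 42.2 and 51.9 CPM in S6K1, with a log2 fold change of 0.33 (adjusted p = 0.285). Rps6, the substrate after which the kinase is named, had 253, 270, 354 and 288 CPM in WT and 368, 286 and 340 CPM in S6K1, which overlapped, with a log2 fold change of 0.22 (adjusted p = 0.527). The members above, Rpl35, Fau and Rps18, were at 0.24, 0.22 and 0.20. Members with the pyrimidine start had a median of 0.14 and those without it 0.15. Starts annotated a few bases away were missed, so the second group can hold such mRNAs and these medians do not test the start. Many ribosomal protein genes have processed pseudogenes, and their reads may be split.

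The fitted difference of the ribosomal protein list depended on the batch term, and the library levels did not separate the genotypes. Its mean log2 level was 6.86, 6.89, 6.99 and 7.12 in the WT libraries and 6.82, 6.93 and 7.16 in the S6K1 libraries, in which the groups interleaved. Without batch 3 members were higher at an unadjusted p under 0.05, where 495 of all 13953 genes were. The median log2 fold change without batch was 0.04, with 34 of 78 members below zero. It was 0.07 within batch 2 and 0.29 within batch 3. The mRNA median was -0.04, the translational efficiency median 0.17, and the median in DKO against FXS 0.05. The 18 other TOP mRNAs, which include elongation and initiation factors, had a median of 0.12 with 17 above zero, and 0.12 without batch. Among them Pabpc1, the poly(A)-binding protein, had 118 to 151 CPM in WT and 154, 163 and 172 CPM in S6K1, with a log2 fold change of 0.32 (adjusted p = 0.416), and Eef2, the elongation factor regulated through its S6K1-controlled kinase, was at 0.20 with batch and -0.18 without.

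The lists of initiation, the mTORC1 pathway, S6K1 substrates and ribosome biogenesis had medians of -0.03 to 0.06, against -0.02 over all tested genes, of which 4.22% were higher and 4.52% lower at an unadjusted p under 0.05. The 36 initiation factors had a median of 0.03 with no member at an unadjusted p under 0.05 in either direction. The 44 genes of the mTORC1 pathway had a median of -0.03, with 1 member in each direction at that p: Rragd, a Rag GTPase subunit, at 0.28 and Sesn2, an amino acid sensor, at -0.30. The 20 S6K1 substrates had a median of 0.06 with 2 higher at that p, Ubtf at 0.23 and Rps6. The 45 genes of ribosome biogenesis had a median of 0.02 with 2 higher, Rrp1b at 0.59 and Ebna1bp2 at 0.31. Among 36 genes of sterol and lipid synthesis the median was -0.11, 27 were below zero and 5 were lower at that p, where 4.52% of all genes were, with Insig1, a brake on sterol synthesis, at -0.52. Without batch this median was -0.04, with 19 of 36 below zero and 2 lower at that p, where 649 of all 13953 genes were. It was -0.01 within batch 2 and -0.06 within batch 3. None of these members passed the adjusted test.

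**Figure D4:**
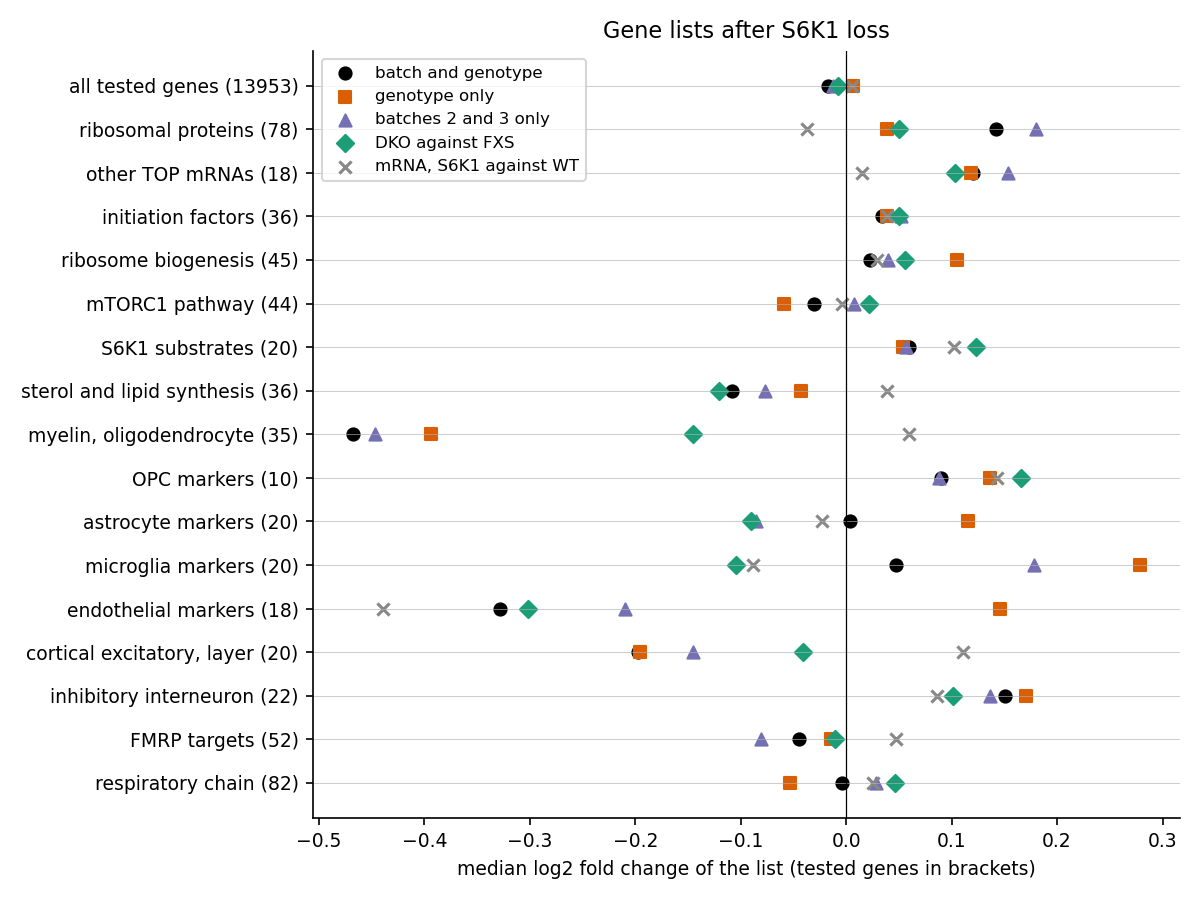
Median log2 fold change (horizontal axis) of each gene list, with the number of tested genes in brackets, for footprints with batch, without batch and in batches 2 and 3, for DKO against FXS, and for mRNA. The myelin list lies between -0.47 and -0.15 for footprints and at 0.06 for mRNA, and the endothelial list changes sign when batch is left out.

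Other cell types gave less regular values. The 22 interneuron genes had a median of 0.15 with 9 at an unadjusted p under 0.05 in the higher direction, where 4.22% of all genes did, among them Dlx5 and Dlx1, transcription factors of GABAergic neurons, at 0.76 and 0.62. Gad1, the GABA-synthesizing enzyme, had 863 to 1040 CPM in WT and 935, 1270 and 1110 CPM in S6K1, at a log2 fold change of 0.30. With the olfactory bulb marker level as a covariate none of the 22 passed that p. Over all 13953 tested genes the number higher at that p went from 589 to 150 with the covariate. The interneuron median was then 0.11, with 16 of 22 above zero. The 20 excitatory and layer genes had a median of -0.20 with 4 lower at that p, where 4.52% of all genes were, including Rorb, a marker of layer 4 neurons, at -0.39. The 12 striatal markers had a median of 0.61, which was 0.30 without WT replicate 2, with -0.20 within batch 2 and 1.30 within batch 3.

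Markers of other glia had fitted medians near zero and opposite signs within batches 2 and 3, each of which has 1 library a genotype. The 20 microglial genes had a median of 0.05, with a log2 ratio of 0.66 within batch 2, where none was below zero, and of -0.33 within batch 3, where 17 were. Without batch their median was 0.28, and it was -0.23 without WT replicate 1 and 0.26 without S6K1 replicate 3. For 20 astrocyte genes the median was 0.00, with 0.14 within batch 2 and -0.29 within batch 3, and -0.13 without S6K1 replicate 1 and 0.23 without S6K1 replicate 3. The 10 genes of oligodendrocyte precursors had 0.09, with 0.46 and -0.22 within these batches. The 18 endothelial genes had a median of -0.33 with 17 below zero, and 0.15 without batch, with -0.01 within batch 2 and -0.36 within batch 3. In mRNA the endothelial median was -0.44, with 10 of 18 lower at an unadjusted p under 0.05, where 3.63% of all genes were. Tek, the angiopoietin receptor, was at -1.43 in footprints and -0.66 in mRNA.

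Low p-values were more frequent among the genes near Rps6kb1 on chromosome 11 than among all genes, in both backgrounds; no test of these shares was made. Within 5 Mb, 13 of 84 tested genes (15.5%) had an unadjusted p under 0.05 in S6K1 against WT, compared with 8.74% of all genes. The share was 15% of 193 genes within 10 Mb and 11.9% of 555 within 20 Mb. In DKO against FXS, 16 of the 84 genes within 5 Mb had such a p, where 863 of the 13952 tested genes other than Rps6kb1 did. A p under 0.05 with the same sign in both S6K1 against WT and DKO against FXS was found for 9 of 84 genes within 5 Mb (10.7%) and for 1.66% of all genes. Within 10 Mb that share was 6.22% and within 20 Mb 3.42%. Utp18 (chr11:93859243-93885766), Ovca2 (chr11:75175943-75178808), Cnp (chr11:100574909-100591875) and Myo1d (chr11:80482126-80780055) lie on this chromosome, and with Rps6kb1 make 5 of the 24 leading genes (20.8%), compared with 8.08% of tested genes.

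Of these 9 neighbours, 7 were lower and 2 higher, and none passed the adjusted edgeR test. The DESeq2 Wald test with the same model called Wfdc18 (adjusted p = 0.0436) and Car4 (adjusted p = 0.0452). The genes described here were chosen after their values were seen. Wfdc18, a small secreted protein gene of low count, had 1.41, 1.84, 1.17 and 1.81 CPM in WT and 0.464, 0.476 and 0.208 CPM in S6K1. Its log2 fold change was -2.002 (adjusted p = 0.217), with -1.62 in DKO against FXS and -2.63 in mRNA (adjusted p = 0.141). Slfn8, of the Schlafen family, had 0.342 to 0.96 CPM in WT and 0.186, 0.178 and 0.083 CPM in S6K1. It was at -2.45 (adjusted p = 0.222), with -1.96 in DKO against FXS and -2.53 in mRNA (adjusted p = 0.141), and its counts may be split with related Slfn genes beside it. In both genes all S6K1 libraries lay below all WT libraries. Olfr464, Scpep1, Coil and Tmem100 were also lower, at -1.10 to -0.25. Tubd1, the gene of delta-tubulin, lies 106 bases from Rps6kb1 by their annotated coordinates. It had 9.55, 7.34, 8.35 and 7.96 CPM in WT and 14.6, 11.3 and 13.7 CPM in S6K1, without overlap. Its log2 fold change was 0.46 (adjusted p = 0.449), and 0.73 in DKO against FXS (adjusted p = 0.68). Car4, a carbonic anhydrase, had 10.3 to 14.4 CPM in WT and 9.7, 8.33 and 9.05 CPM in S6K1, at -0.60 and, in DKO against FXS, -0.50. Mtmr4, a lipid phosphatase, was at 0.31 and 0.23. The median of the 40 nearest tested genes was -0.02, equal to that of all genes.

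**Figure D5:**
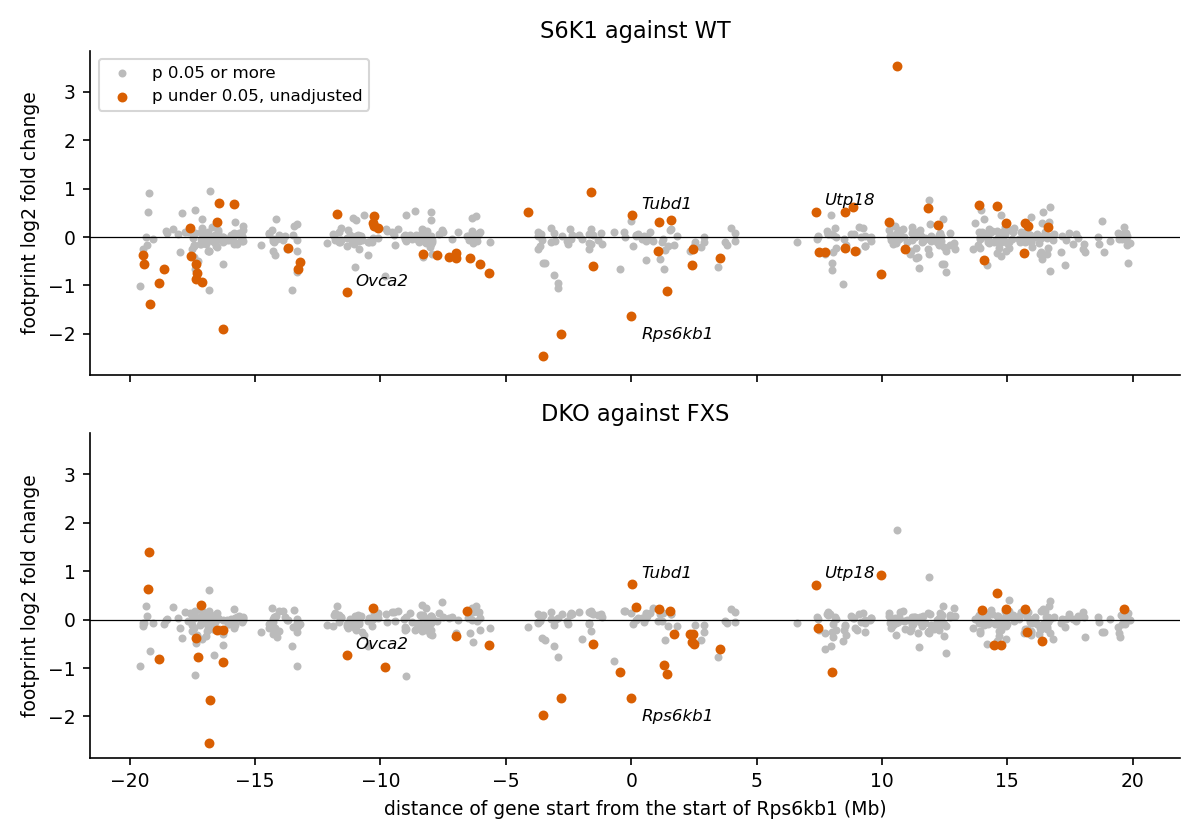
Footprint log2 fold change (vertical axis) of tested genes by the distance of their start from that of Rps6kb1 in Mb (horizontal axis), for S6K1 against WT and DKO against FXS, with filled orange points for an unadjusted p under 0.05. Rps6kb1 is at -1.63 in both panels, and Utp18 and Tubd1 lie above zero in both.

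The mRNA libraries gave 3 calls (0.0211% of 14215 genes), all on chromosome 11. Rps6kb1 mRNA fell less than its footprints: it had 55.4, 43.4, 47.3 and 39.5 CPM in WT and 43.7, 31.9, 30.5 and 28.2 CPM in S6K1, with a log2 fold change of -0.47 (adjusted p = 0.0217, SE 0.08). The groups overlapped, while within each batch the S6K1 library was lower. Rad51d (chr11:82871960-82890624), a gene of homologous recombination, rose: its mRNA was at 11.2 to 15 CPM in WT and 18.2 to 23.7 CPM in S6K1, a log2 fold change of 0.64 (adjusted p = 0.0217), while its footprints were at -0.18 (adjusted p = 0.718). Epx (chr11:87863997-87875536), eosinophil peroxidase, fell in mRNA with 1 count in S6K1 and 47 in WT. Its footprints were too few to be tested. Without batch edgeR called none of the 3, with 182 genes higher and 187 lower at an unadjusted p under 0.05.

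Translational efficiency gave 4 calls (0.0293% of 13654 genes): Rps6kb1, Cnp, Rad51d and Phtf1. It fell for Rps6kb1 (log2 fold change -1.16, SE 0.15, adjusted p = 0.000214) and for Rad51d (-0.81, adjusted p = 0.0352). It rose for Phtf1, a membrane protein gene, at 0.85 (adjusted p = 0.0412). Phtf1 footprints were at 5.81, 4.74, 4.18 and 3.61 CPM in WT and 10.8, 8.92 and 8.76 CPM in S6K1, without overlap, and its mRNA at 82.8 to 107 CPM and 82.8 to 89.5 CPM. In DKO against FXS the Phtf1 footprint value was -0.38, and the difference between backgrounds was -1.11 (adjusted p = 0.595).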

How the data were processed

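Footprint and polyadenylated mRNA libraries from mouse cortex were analysed as 2 tables of raw counts per gene symbol over coding sequence, deposited by the authors. Reads were handled with cutadapt 2.0, Bowtie2, TopHat2 and RSEM on mm10, per the submitters' processing notes, which give no order or role. Which of them counted, the gene models and the filters on reads are not given in the sources used here. The authors' own comparison tables do not cover this contrast and were not used.

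Genes passing filterByExpr were fitted with edgeR 4.0.16 (R 4.3.3; TMM factors, robust quasi-likelihood test) over all 15 footprint libraries with batch and genotype, and p-values were adjusted by Benjamini-Hochberg over all tested genes, with a threshold of 0.05. CPM are TMM-scaled. The mRNA fit used 16 libraries. Translational efficiency was the assay interaction over 31 libraries, with batch within assay and TMM within assay. limma 3.58.1, DESeq2 1.42.0 (independent filtering set for 0.05), DESeq2 size factors, no filter, no batch term, fewer libraries and leaving out each library were alternatives. The footprint and translational efficiency fits were run on simulated counts with known changes. These counts had no batch effect and the same dispersion for every gene, so they do not test how the fits handle the unbalanced batches. Within-batch ratios used CPM plus 0.5. Intervals on counts are exact binomial and cover counting error only.

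Same-batch library pairs of different genotype had a median correlation of deviations of 0.298 over 20 pairs, with 16 above 0.1, and the other 63 pairs -0.099. Batch, as the labels name it, was therefore kept in the model. Replicates of a group differed by more than counting noise. Named genes were Rps6kb1, Rps6kb2, Fmr1, called genes, the 12 of smallest p in each direction, and in each list the 2 of smallest p and the most abundant member, plus the fixed cell type markers. Only some of these are described, and the others are not reported here. The groups compared, gene lists and tests were chosen with earlier results of these data known, and the olfactory bulb list, its covariate and the genes near Rps6kb1 after seeing the values. Of 13953 tested genes, 13925 matched the RefSeq gene table (GRCm38.p6).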

Additional observations from a re-analysis of the deposited data

Results flagged for a closer look

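Single WT libraries stood apart from the other 3 in 5 of 62 groups of libraries checked, where chance flags about 1 in 20. Ankrd6 was low in WT replicate 2 at 8.69 CPM, and Ablim3 low in WT replicate 1 at 10.5 CPM. Opalin, an oligodendrocyte protein, was high in WT replicate 2 at 32.8 CPM, and so was the mean log2 level of the myelin list at 5.93. The mean log2 level of the cortical excitatory and layer list was low in WT replicate 1 at 6.05, with the other WT libraries at 6.18 to 6.20.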

How the results depend on the processing

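Rps6kb1 was called in 15 of 16 alternatives, with log2 fold changes of -1.75 to -1.45, and missed the threshold at -1.483 (adjusted p = 0.0723) in the fit of S6K1 and WT libraries alone without batch. Batch is the block of these fits, and replicate numbers only name libraries. Without that replicate block, footprint calls remained at 1 and Rps6kb1 was at -1.5, mRNA calls went from 3 to 0 and translational efficiency calls from 4 to 0, members at an unadjusted p under 0.05 went to 14 for myelin, 3 for ribosomal protein and 4 for interneuron genes, and the medians of endothelial and choroid plexus markers changed sign to 0.146 and 0.069, as did Fmr1, to 0.185. DESeq2 called 37 genes for footprints, 10 for DKO against FXS, 5 for the difference between backgrounds, 6 for mRNA and 12 for translational efficiency. limma voom called 2 for translational efficiency and gave 0.018 for Fmr1. The S6K1 and WT libraries alone gave 22 calls, 15 myelin and 8 ribosomal protein members at that p, and 0.107 for Fmr1. Without batch they gave 0 calls, 13 myelin, 3 ribosomal protein and 4 interneuron members, medians of 0.243 (endothelial) and 0.088 (choroid plexus), and 0.205 for Fmr1. Batches 2 and 3 alone gave 12 myelin and 4 ribosomal protein members, and 0.09 for Fmr1. With the olfactory bulb covariate, 6 ribosomal protein and 0 interneuron members passed that p, where 150 of all 13953 genes were higher at it. The medians of blood and olfactory bulb markers were then 0.013 and -0.119.

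Leaving out 1 library at a time gave 1 to 3 footprint calls, 1 to 4 for DKO against FXS, 0 for the difference between backgrounds, 0 to 3 for mRNA and 1 to 12 for translational efficiency. The highest of these came without WT replicate 1 (footprints), FXS replicate 2 and footprint WT replicate 1. Members at an unadjusted p under 0.05 numbered 14 (without WT replicate 2) to 30 for myelin, 4 (without S6K1 replicate 3) to 16 for ribosomal protein and 2 (without S6K1 replicate 2) to 8 for interneuron genes. Medians ranged from -0.343 to 0.305 for choroid plexus and from -0.296 to 0.348 for blood markers, and Fmr1 from -0.114 to 0.061. Fewer libraries leave fewer degrees of freedom, and the cause of the other differences was not tested. With 3 S6K1 libraries the median SE of a log2 fold change was 0.14.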
